A study of Drosophila melanogaster with 2 samples.

Results

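Of the 7838 peak summits that recurred between replicates in a ChIP-seq experiment on the transcription factor Dmrt99B, 588 (7.50%, 95% Wilson interval 6.94% to 8.11%) lay at divergent protein-coding promoters. A summit, the point of highest signal within a peak, was taken as one of these when it lay within 500 bp of an annotated protein-coding transcription start site (TSS) and that nearest TSS had, within 1000 bp and on the opposite strand, a TSS of another protein-coding gene. Each summit was counted once. Of the 588 summits, 562 lay at head-to-head pairs, whose transcripts point away from each other, and 26 lay at pairs whose TSSs are placed the other way round, so that the transcripts overlap. The other summits within 500 bp of a TSS, 1499 in number, had no such partner and are called single-promoter summits.

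The chromatin came from whole Drosophila melanogaster embryos, male and female pooled, at 6 to 16 hours of age. They carried a transgene, stably expressed, that encodes dmrt99B with GFP (eGFP in the description) at its C-terminal end, and the promoter that drives it is not stated in the labels. All samples belong to 1 group of 2 biological replicates, numbered 3 and 4, so that no group without the tagged protein is compared here. Chromatin was sonicated to a size range of 200 to 800 and immunoprecipitated with an anti-GFP antibody according to the description, although the antibody entry names dmrt99B. Because whole embryos were used, a peak does not tell in which cells, or in how many of them, the fusion protein was present at that site.

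Dmrt99B belongs to the DM-domain family, named for the zinc-finger DNA-binding domain shared by doublesex and vertebrate Dmrt proteins. In the compact fly genome, many housekeeping genes lie head to head, so that a short stretch between the TSSs serves as promoter to both. Such promoters are known to hold the DNA replication-related element (DRE), bound by Dref, and related sites of the insulator protein BEAF-32, as well as core promoter motif 1, bound by M1BP, while developmental promoters more often hold sites of GAGA factor.

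Sequences are shown first for summits with a DRE and with CAGTGTA, the 7-mer that led an earlier search of all peaks of these data, because these motifs were found at different shares of divergent and single promoters. They were picked in order of signal value among summits with the motif inside the 121 bases shown. Summits with a match anywhere in the wider window of 201 bp, used for the counts of motifs, reached signal values of 2716 for the DRE and 3160 for CAGTGTA. A strong summit with none of the searched motifs in its 121 bases is set beside them. Its wider window held the Initiator core TCAGT. Each run is 121 bases of the plus strand of dm6, centred on the summit, from the RefSeq copy of the release 6 assembly. Capitals mark the DRE, TATCGATA, in the first and second runs and the reverse complement of CAGTGTA in the third, and the fourth has no capitals. The runs are chr3R:11216277-11216397 between RpS25 and CG4820, chr3R:26059247-26059367 between RpL34a and Trmt61, chr3L:1645245-1645365 between alphaCOP and CG13919, and chr3R:31404597-31404717 at PNPase and Gprk2.
RpS25/CG4820: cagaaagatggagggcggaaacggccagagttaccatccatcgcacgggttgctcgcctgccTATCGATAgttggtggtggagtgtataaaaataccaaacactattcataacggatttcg
RpL34a/Trmt61: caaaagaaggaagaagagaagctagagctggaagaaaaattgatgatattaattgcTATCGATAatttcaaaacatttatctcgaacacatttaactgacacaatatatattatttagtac
alphaCOP/CG13919: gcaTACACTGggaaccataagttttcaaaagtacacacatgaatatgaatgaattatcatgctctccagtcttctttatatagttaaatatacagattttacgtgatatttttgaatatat
PNPase/Gprk2: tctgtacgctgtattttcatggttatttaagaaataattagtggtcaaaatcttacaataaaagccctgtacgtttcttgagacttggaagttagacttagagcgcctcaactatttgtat
The DRE was centred 6 bp to the right of the summit at RpS25 and CG4820, and at the summit itself at RpL34a and Trmt61. At alphaCOP and CG13919 the 7-mer was centred 54 bp to the left of the summit. RpS25 and RpL34a encode proteins of the cytoplasmic ribosome, Trmt61 a tRNA methyltransferase subunit, alphaCOP a subunit of the COPI vesicle coat, PNPase a mitochondrial RNA-processing enzyme and Gprk2 a kinase of G protein-coupled receptors.

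The whole stretch between the TSSs is shown for Art3, a protein arginine methyltransferase gene on the minus strand, and mRpS10, a mitochondrial ribosomal protein gene on the plus strand. The pair was chosen after its values were seen, because its summit lay close to the midpoint. The run is chr3R:15229408-15229665, 258 bases of the plus strand of dm6, with the summit at position 15229533. Capitals mark CGATA, the core of the BEAF-32 site, as its reverse complement, 81 bp to the left of the summit, and ACAATGT, the DM-domain core, also as its reverse complement, 42 bp to the left of it.
Art3/mRpS10: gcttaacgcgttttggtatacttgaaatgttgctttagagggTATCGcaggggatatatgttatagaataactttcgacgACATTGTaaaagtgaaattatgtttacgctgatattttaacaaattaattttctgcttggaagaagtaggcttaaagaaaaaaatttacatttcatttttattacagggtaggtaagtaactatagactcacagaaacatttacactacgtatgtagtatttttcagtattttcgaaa
The summit lay 125 bp from the TSS of Art3 and 132 bp from that of mRpS10. Its signal value, the authors' score for the height of a peak, whose scale is not stated, was 6094 in the pooled data. It was 4159 in replicate 3 and 1945 in replicate 4, and the peak ranked 10 in both replicate lists. Signal values are not compared between lists in what follows, and read depth is unknown.

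The summits at head-to-head pairs lay mostly in the sequence between the TSSs. Of the 588, 449 (76.4%, 72.8% to 79.6%) lay between head-to-head TSSs and 113 lay beyond one of them, at a median of 70.0 bp into the transcript of the nearest gene. The sequence between head-to-head TSSs is the upstream side of both. Upstream of the nearest TSS lay 79.7% of the summits at head-to-head pairs and 81.3% of single-promoter summits, so that this share was not higher at head-to-head pairs. Upstream sequence is shorter at head-to-head pairs, which these shares do not take into account and the densities below do. In all, 460 (78.2%, 74.7% to 81.4%) of the 588 were within 500 bp of both TSSs. The nearest TSS was on the plus strand for 305 and on the minus strand for 283. These summits fell in sequence annotated as intergenic in 359 cases (61.1%), as 5′ UTR in 119 (20.2%) and as intron in 97 (16.5%), with the other 13 in coding exons, 3′ UTRs or other exons. Among single-promoter summits the intergenic share was 41.2% and the intron share 39.1%.

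**Figure D1:**
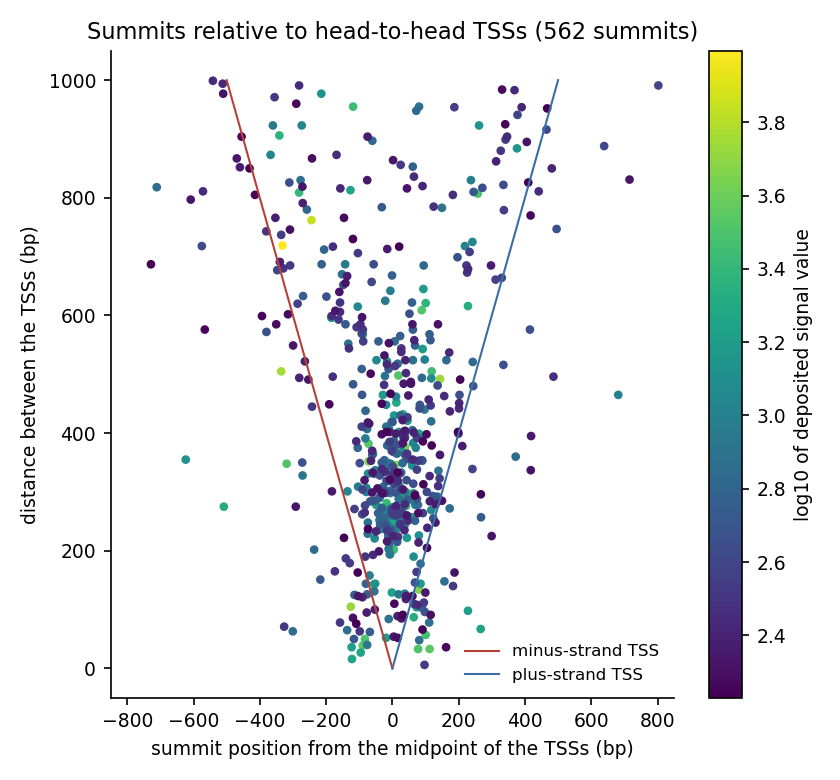
Each point is 1 summit at a head-to-head pair, with its distance in bp from the midpoint between the TSSs on the x axis and the distance between the TSSs on the y axis, the colour giving the log10 signal value and the lines the TSSs. For TSSs 250 to 350 bp apart the points gather at the midpoint, at a median of 38.0 bp from it, and for TSSs 750 to 1000 bp apart they spread out, at a median of 313 bp.

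Where between the TSSs the summit lay changed with their distance. For TSSs 250 to 350 bp apart, 128 of 139 summits (92.1%, 86.4% to 95.5%) lay between them, and the median distance was 110 bp from the nearest TSS and 38.0 bp from the midpoint. Of those 128, 64.1% lay in the central one of 3 equal parts of the gap, which holds 33.3% of its length. For TSSs 150 to 250 bp apart that share was 65.3% of 49 summits, and it was 56.7% of 104 at 350 to 500 bp. It was 45.7% of 92 at 500 to 750 bp and 25.9% of 58 at 750 to 1000 bp. Summits were thus central in gaps of 150 to 500 bp and no longer so in the widest, where the median distance to the nearest TSS was 138 bp and that to the partner 744 bp. Of the 64 summits at TSSs less than 150 bp apart, only 28.1% (18.6% to 40.1%) lay between them. The interval between those TSSs is shorter than most peaks, whose median width was 424 bp. The distance limits in the definition leave out no position between TSSs up to 1000 bp apart, since each is within 500 bp of the nearer TSS.

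The place of the summit relative to the TSS also differed from that at single promoters. Density was counted as summits per Mb of promoter sequence, each base being assigned to its nearest TSS, so that the short upstream side of head-to-head genes is taken into account. From 150 to 100 bp upstream of the TSS, head-to-head promoters held 926 summits per Mb (exact 95% Poisson interval 785 to 1084) and single promoters 244 (206 to 286). From 200 to 150 bp upstream the densities were 729 (579 to 907) and 293 (251 to 340). Single promoters reached their highest density, 323 per Mb (278 to 372), from 250 to 200 bp upstream, where head-to-head promoters held 539 (388 to 728). In each replicate list the single-promoter density was highest one bin closer to the TSS, from 200 to 150 bp upstream, at 303 per Mb in replicate 3 and 347 in replicate 4. Both replicates showed the peak of the head-to-head profile in the same place, since their lists of the 7838 strongest peaks gave 968 per Mb in replicate 3 and 1034 in replicate 4 from 150 to 100 bp upstream, against 231 and 250 at single promoters. Downstream the profiles came together, with 40.9 summits per Mb (25.3 to 62.5) at head-to-head and 39.0 (28.7 to 51.9) at single promoters from 100 to 200 bp into the gene. From 200 to 500 bp into the gene the head-to-head value was the lower one, 11.9 (6.93 to 19.1) against 29.0 (23.5 to 35.3). Over the whole windows divergent promoters held 163 summits per Mb (150 to 176) in 3.62 Mb and single promoters 128 (122 to 135) in 11.7 Mb, a ratio of 1.27. The intervals cover counting error over summits only.

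**Figure D2:**
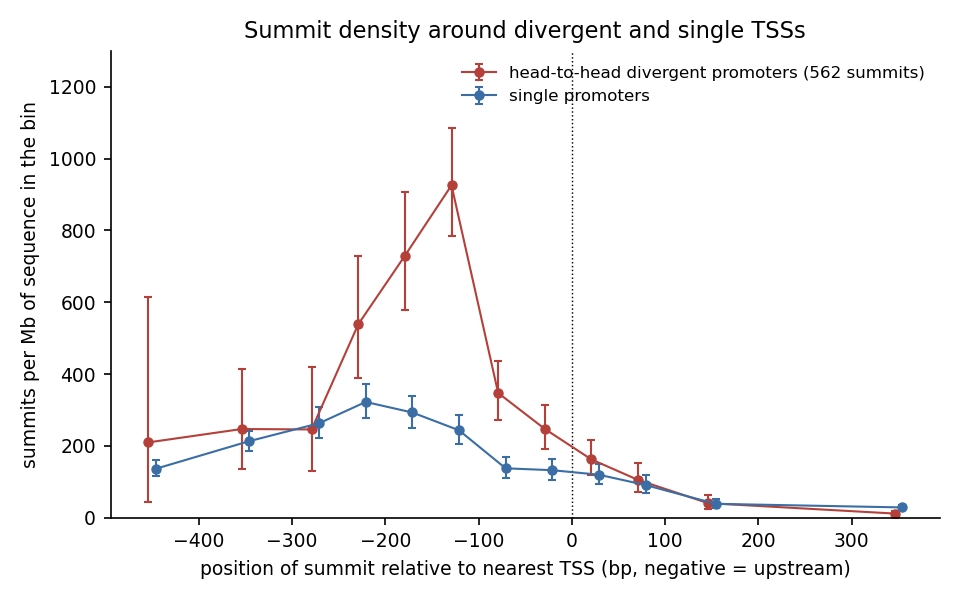
Summits per Mb of promoter sequence (y axis) by distance from the nearest TSS in bp (x axis, upstream negative) at head-to-head and single promoters, with exact 95% Poisson intervals and the points of the classes drawn slightly apart. The head-to-head profile is highest from 150 to 100 bp upstream, at 926 per Mb, and the single-promoter profile from 250 to 200 bp upstream, at 323 per Mb.

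The 588 summits named 539 gene pairs and 1070 genes. Of the pairs, 491 had 1 summit, 47 had 2 and 1 had 3. In the annotation 2640 head-to-head pairs lay within the distance limit, and 518 of them (19.6%, 18.2% to 21.2%) had at least 1 such summit. The pairs were grouped by the smallest distance between their TSSs, and a summit at other, more widely spaced TSSs of the same genes counted too. So grouped, the share was 14.0% (11.5% to 17.0%) at less than 150 bp and 15.6% (12.3% to 19.5%) at 150 to 250 bp. It was 25.5% (22.0% to 29.5%) at 250 to 350 bp, 23.1% (19.4% to 27.3%) at 350 to 500 bp, 19.6% (16.1% to 23.6%) at 500 to 750 bp and 21.9% (17.2% to 27.4%) at 750 to 1000 bp. The share was thus lowest for the closest pairs.

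Counted by gene, 1139 of the 5141 protein-coding genes with a divergent TSS (22.2%, 21.0% to 23.3%) had a recurring summit within 500 bp of any of their TSSs, divergent or not. The share was 16.1% over all 13945 protein-coding genes and 12.5% (11.9% to 13.2%) over the 8804 others. With only the 5′ end of each gene as its TSS, the shares were 19.3% of divergent and 10.4% of other genes. A summit between close TSSs counts for both genes, and in 460 of the 539 pairs (85.3%) each gene had a summit within 500 bp, so that genes of a pair are not independent. Counted by summit, those at divergent promoters were 28.2% (26.3% to 30.1%) of the 2087 promoter summits, while 32.5% of protein-coding TSSs are divergent. The order depends on the distance allowed, since the share was 38.3% of the 1415 summits within 250 bp of a TSS.

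These summits had somewhat higher signal values than the remainder of the list. Their pooled values ran from 170 to 9896, with a median of 458 and quartiles of 265 and 949. The median was 410 at single promoters and 322 over summits outside promoters. In replicate 3 the medians in the same order were 339, 306 and 236, and in replicate 4 they were 140, 120 and 94.0, so that the order was the same in both. The 449 summits between head-to-head TSSs had a median of 499 and the 113 beyond them 339, while the 26 at overlapping pairs had 431. By the distance between the TSSs, the median fell from 649 at 150 to 250 bp to 292 at 750 to 1000 bp.

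Divergent promoters took a larger share of the strongest peaks. They held 7 of the 25 strongest (28.0%, 14.3% to 47.6%) and 112 of the strongest 784 (14.3%, 12.0% to 16.9%), but 219 of the weaker 3919 (5.59%, 4.91% to 6.35%). Among the 22162 pooled peaks below the threshold on recurrence the share was 2.34%. Single promoters followed the same order, with 34.4% of the strongest 784 and 16.2% of the weaker 3919, so that the share of divergent among all promoter summits moved less, from 29.3% to 25.6%, with overlapping intervals.

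Replicates placed the summits close together. A peak of replicate 3 covered 579 of the 588 summits and one of replicate 4 covered 578, and 569 (96.8%) were covered in both. The replicate summit lay at a median of 5.0 bp from the recurring one in replicate 3 and 16.0 bp in replicate 4. Of the 588, 95.2% (93.2% to 96.7%) in replicate 3 and 90.8% (88.2% to 92.9%) in replicate 4 were covered by one of the 7838 strongest peaks of that replicate. Over all 7838 recurring summits these shares were 94.1% and 87.3%, and the median distances 5.0 and 17.0 bp. Because the list holds peaks selected for recurrence between the replicates, such closeness follows in part from the selection and is not particular to divergent promoters. Among the 569 summits covered in both, the covering peaks differed most in rank at RpL14 and Nelf-E. RpL14 is a cytoplasmic ribosomal protein gene and Nelf-E encodes a subunit of the negative elongation factor. The covering peak there ranked 29371 in replicate 3, with a value of 29.9, and 897 in replicate 4, with 321, and the pooled value was 952. A replicate value is that of a peak covering the summit. Whether a stronger peak of replicate 3 lay beside it was not tested. That pair was picked out after its values were seen.

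**Figure D3:**
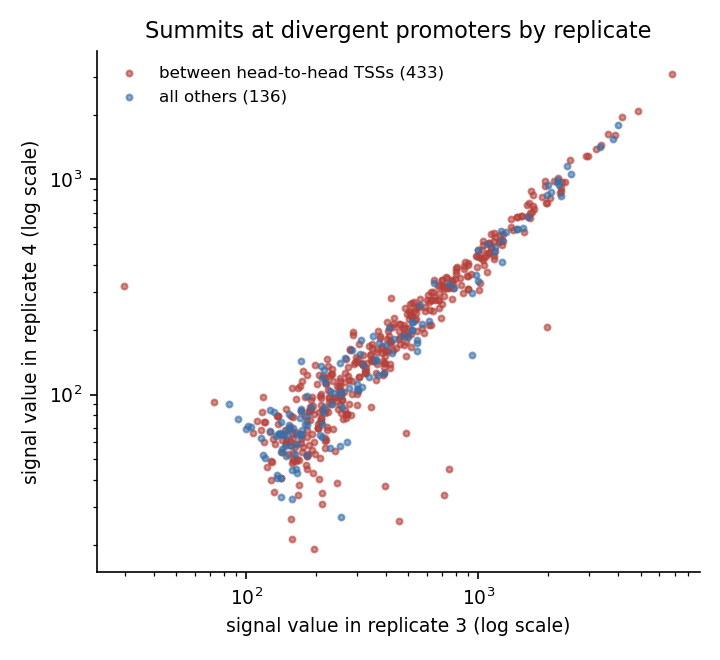
Signal value in replicate 3 (x axis) and replicate 4 (y axis), both on log scales and in units that are not stated, for the 569 summits covered by a peak in both replicates, coloured by whether they lay between head-to-head TSSs (433) or not (136). The strongest summit reached 6842 in replicate 3 and 3073 in replicate 4, and the point of lowest replicate 3 value, 29.9, is the summit at RpL14 and Nelf-E.

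The pairs at the 20 strongest of these summits were all head to head, and 14 of the summits lay between the TSSs. The strongest, which was also the strongest of all 7838 peaks, lay 28 bp from the TSS of Ugalt, which encodes a UDP-galactose transporter, and 691 bp from that of eIF2Bbeta, a subunit of the exchange factor of translation initiation factor eIF2. Its signal value was 9896 in the pooled data, 6842 in replicate 3 and 3073 in replicate 4. The peak ranked 2 in replicate 3 and 1 in replicate 4. The next strongest lay between mRpL41, a mitochondrial ribosomal protein gene, and CG8079, at 6938 in the pooled data, 4868 in replicate 3 and 2085 in replicate 4. The peak of Art3 and mRpS10 came after it. At PNPase and Gprk2 the values were 5757, 3982 and 1785 in the same order, and the summit lay not between the TSSs but 83 bp into the transcript of PNPase. The summit between CenG1A, an Arf GTPase-activating protein gene, and mRpS23 had 5472, 3859 and 1602. At Chro, which encodes the chromosomal protein Chromator, and Ssl1, a TFIIH subunit, the values were 5304, 3792 and 1536. Of these 6 pairs, 3 thus hold a mitochondrial ribosomal protein gene.

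The other 14 of the 20 strongest had pooled values from 3182 to 5217 and ranked at most 119 in either replicate. Genes of membrane lipid and protein modification among them were PIG-F and PIG-G, of glycosylphosphatidylinositol anchor synthesis, and Stt3A, an oligosaccharyltransferase subunit. Genes of organelles were Lon, a mitochondrial protease, Pex11ab, of peroxisomes, and CHMP2B, of the ESCRT-III complex. Genes of RNA and translation were eIF4EHP, a cap-binding repressor of translation, Tcs5, of tRNA modification, and Elp5, of the Elongator complex. Signalling genes were p38a, a stress-activated kinase, Mtl, a Rac-type GTPase, and Pax, the focal adhesion protein paxillin. The remaining pairs were CG13390 with CG17294, Pal1 with Pdrg1, CG9147 with Fbw5, CG11309 with CG7632 and the partners bves, Alp12, CG5611, CG18428, CG8320, CG6178, CG1602 and CG1275. Many of these genes carry only a computed name, and no role is given for them.

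Gene lists differed in how often their divergent members had a summit within 500 bp of any of their TSSs. The background is the 22.2% of all genes with a divergent TSS. Of the 53 cytoplasmic ribosomal protein genes with a divergent TSS, 33 (62.3%, 48.8% to 74.1%) had one. Members without a divergent TSS had a summit in 19 of 33 cases (57.6%, 40.8% to 72.8%), and the intervals overlap. The strongest were RpL34b with CG8132, at 1304 in the pooled data, 899 in replicate 3 and 400.4 in replicate 4, and RpS27 with the nucleoporin gene Nup37, at 1276, 868 and 396. RpS28b with l(1)G0320 had 1040.4 in the pooled data, at a summit 804 bp from the TSS of RpS28b and so beyond the 500 bp counted. The median over the list was 539, so that frequent summits at these genes did not go with signal values far above the median of 458.

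Mitochondrial ribosomal protein genes are mostly divergent, 58 of 73 (79.5%). Of the 58, 18 (31.0%, 20.6% to 43.8%) had a summit, against 1 of the 15 others, and the interval includes the background. Besides the genes named above, mRpL23 with CG9004 had 3148 in the pooled data, 2179 in replicate 3 and 968 in replicate 4. The median over the list was 529.

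Genes of chromatin and insulator proteins had a summit in 7 of 15 cases (46.7%, 24.8% to 69.9%) when divergent and in 5 of 13 (38.5%, 17.7% to 64.5%) when not. After Chro came Cp190, an insulator cofactor, with CG4338 at 2704, then E(z), the histone methyltransferase of Polycomb repressive complex 2, with Cnep1r2 at 1879, and M1BP with CG8202 at 1302. Dref shared a summit with RpL13 at 784, so that genes of the factors that bind DRE and motif 1 were themselves among these promoters.

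In the general transcription machinery, 12 of 53 divergent genes (22.6%, 13.5% to 35.5%) had a summit, a share near the background, against 0 of the 24 others (upper Wilson bound 13.8%). The strongest summits at pairs with a gene of this list were at MED15, a Mediator subunit, with CG4297 at 1784, and at Taf5, of TFIID, with Pex6 at 1752. Next came Polr3E, of RNA polymerase III, with CG10584 at 1569 and Taf2 with CalpB at 1419.5. The summit named for MED15 lay 533 bp from its TSS, beyond the 500 bp used for the counts. Translation factors had 7 of 28 (95% interval 12.7% to 43.4%). The strongest summits at pairs with such a gene were those named above for eIF2Bbeta and eIF4EHP, followed by eRF3, a release factor, with the splicing factor gene SC35 at 834. The summit named for eIF2Bbeta, 691 bp from its TSS, also lay beyond the 500 bp counted. Cell cycle genes had 6 of 26 (23.1%, 11.0% to 42.1%), led by Cdc16, of the anaphase-promoting complex, with orb at 1293. Cdk12, which was counted on this list, came next with the centriole kinase gene SAK at 853. For these 3 lists the intervals include the background.

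The point values of the other large lists were lower, but the intervals of all except histone and chemosensory genes include the background. Respiratory chain genes had 8 of 43 (18.6%, 9.74% to 32.6%), led by the complex I subunit gene ND-ASHI with Fum1 at 1565. Proteasome genes had 4 of 26 (15.4%, 6.15% to 33.5%), led by Rpn3 at 732. DNA replication genes had 2 of 22 (9.09%, 2.53% to 27.8%) and tRNA synthetase genes 2 of 23 (8.70%, 2.42% to 26.8%). Of the histone genes 1 of 89 had one, the variant gene His2Av with the kinase gene ball at 378. The others lie mostly in repeated clusters, and the part that read mapping has in this count was not tested. Chemosensory genes had 0 of 39, where a limit of 3 counts allows a share of up to 7.69% (upper Wilson bound 8.97%). Cuticle genes had 0 of 13, which by the same limit allows up to 23.1% (upper Wilson bound 22.8%). Of the 38 patterning factors only 1 was divergent at all, with no summit. Hsp83 with CG14965 at 1075 was the heat shock gene pair with a summit at its divergent promoter, and brat, a neuroblast tumour suppressor gene, with Polr1D at 179 was the pair among neural factors.

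**Figure D4:**
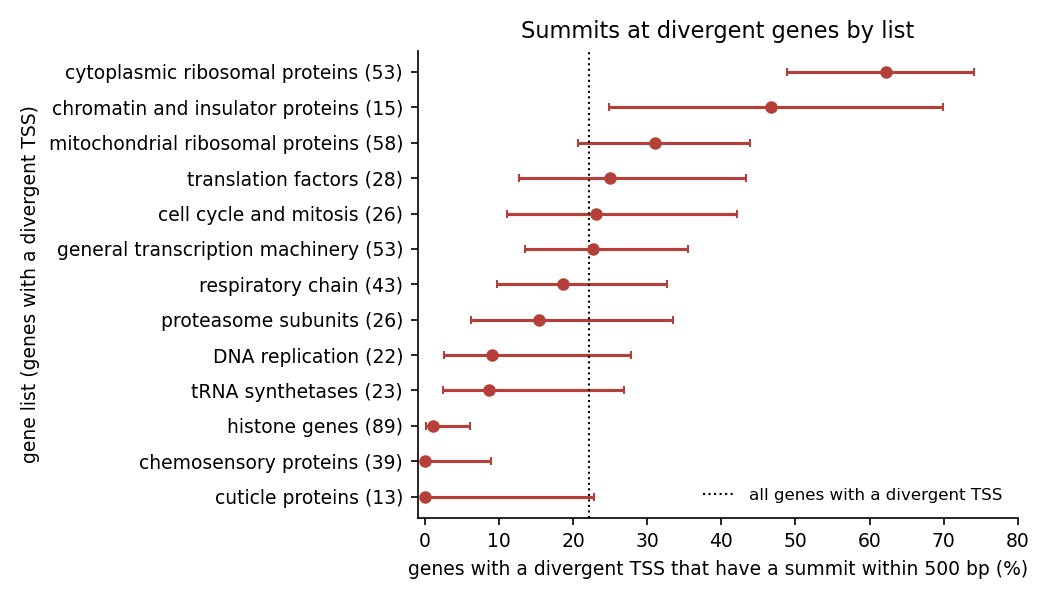
Percent of genes with a recurring summit within 500 bp of a TSS (x axis) for each gene list (y axis) with at least 10 divergent genes, for genes with a divergent TSS, with their number in parentheses and 95% Wilson intervals. Cytoplasmic ribosomal protein genes reach 62.3%, against 22.2% over all genes with a divergent TSS (dotted line).

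Motifs were searched on both strands in windows of 201 bp centred on the summits, as descriptions of sequence and not of a bound factor. The DRE occurred in 50 of the 588 windows (8.50%, 6.51% to 11.0%), against 1.93% (1.35% to 2.76%) at single promoters and 0.435% outside promoters. In the replicate lists the shares at divergent and single promoters were 8.39% and 1.98% in replicate 3, and 7.07% and 2.51% in replicate 4. CGATA, which the DRE contains, occurred in 36.1% (32.3% to 40.0%) and 24.5% (22.4% to 26.8%). Motif 7, CATCNCTA, occurred in 6.46% (4.74% to 8.75%) and 3.27% (2.48% to 4.30%). For motif 1, GGTCACACT, the values were 2.55% (1.55% to 4.17%) and 1.27% (0.813% to 1.97%). The intervals overlap for motif 1 and for no other of these.

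At the midpoints of head-to-head pairs, however, the DRE was not more frequent with a summit than without. In windows of the same length at the midpoint of head-to-head pairs, it occurred in 6.37% (4.57% to 8.81%) of the 518 pairs with a summit and in 9.41% (8.19% to 10.8%) of the 1944 pairs with no recurring summit. For CGATA the values were 36.9% (32.8% to 41.1%) and 43.2% (41.0% to 45.4%). Motif 1 occurred in 1.93% (1.05% to 3.52%) and 5.09% (4.20% to 6.16%). TATAAA went the other way, with 48.1% (43.8% to 52.4%) and 38.7% (36.6% to 40.9%). The mean GC content of these windows was 31.6% ± 7.67 (SD, n = 518) with a summit and 34.5% ± 8.34 (SD, n = 1944) without. Its part in the counts of these motifs was not tested. At single promoters TATAAA and GC content went in the opposite direction. There, windows of the same length were set 100 bp upstream of the TSS. TATAAA was in 25.4% (23.7% to 27.2%) of 2304 with a summit and in 34.6% (33.6% to 35.5%) of 9751 without. Mean GC content was 43.3% and 40.1%. The DRE was in 2.82% with a summit and 4.29% without, the same direction as at the midpoints. The intervals of the midpoint counts overlap for the DRE and only just for CGATA. The 2 sets of pairs were not matched for the distance between the TSSs. Where TSSs are less than 150 bp apart, a window of 201 bp at the midpoint takes in both, and such pairs had a summit least often. The part of this distance in the midpoint counts was not tested.

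DRE matches did not gather at the summit. Per 1000 summits at divergent promoters there were 37.4 matches within 50 bp, 51.0 from 50 to 100 bp, 62.9 from 100 to 150 bp and 42.5 from 150 to 200 bp, falling to 17.0 from 250 to 300 bp. Motif 1 had 17.0 within 50 bp and 39.1 from 100 to 150 bp. The 2 runs shown above with a DRE at or near the summit are thus not typical. The median distance from a head-to-head summit to its nearest TSS was 116 bp. Matches were counted on both sides of the summit and were not placed relative to the TSSs.

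GAGAGAG was rare. It occurred in 5 windows (0.850%) at divergent promoters and in 103 (6.87%) at single promoters. Between head-to-head TSSs it was in 0 of 449 windows, where a limit of 3 counts allows a share of up to 0.668% (upper Wilson bound 0.848%). At the midpoints of head-to-head pairs it was in 2.12% (1.19% to 3.76%) of windows with a summit at the pair and in 2.26% (1.69% to 3.02%) of those with no recurring summit, with overlapping intervals. In the windows upstream of single-promoter TSSs, GAGAGAG was in 15.1% (13.7% to 16.7%) with a summit and 5.65% (5.21% to 6.13%) without. CAGTGTA occurred in 17 windows (2.89%, 1.81% to 4.58%) at divergent promoters, in 5.74% (4.67% to 7.03%) at single promoters and in 9.69% (8.95% to 10.5%) outside promoters, so that divergent promoters held it least often of these 3 sets. The DM core ACAATGT had 3.91% (2.62% to 5.80%), 2.87% (2.14% to 3.84%) and 4.29% (3.80% to 4.85%), with overlapping intervals. CAGTGTA was picked because it led an earlier search of all peaks, most of which lie outside promoters. Its order over the 3 sets is therefore not independent of that choice. At the midpoints of head-to-head pairs CAGTGTA was in 2.51% (1.47% to 4.25%) with a summit and 1.44% (0.998% to 2.07%) without, with overlapping intervals.

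**Figure D5:**
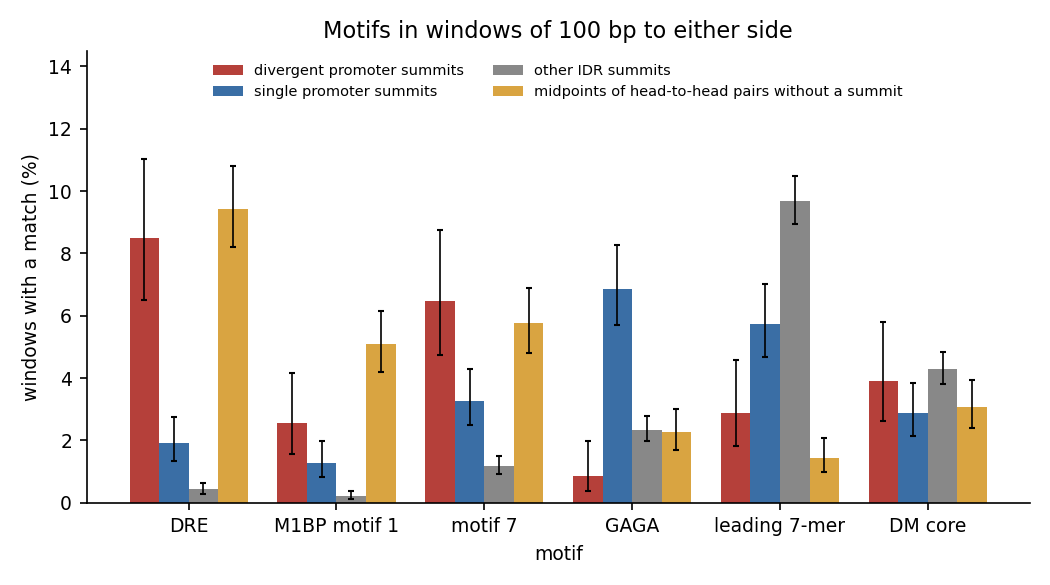
Percent of 201 bp windows with each motif (y axis) at summits of divergent promoters, of single promoters and outside promoters and at midpoints of head-to-head pairs with no recurring summit, with 95% Wilson intervals. The DRE is in 8.50% of the windows at divergent promoters and 1.93% at single promoters, but also in 9.41% of midpoints with no summit.

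Stronger and weaker summits at divergent promoters differed in sequence. Split by signal value into 4 groups of 147, the DRE was in 2.04% (0.696% to 5.83%) of the strongest and in 14.3% (9.54% to 20.9%) of the weakest, and CGATA in 21.8% (15.9% to 29.1%) and 47.6% (39.7% to 55.7%). The groups between them were not in order for the DRE, with 10.9% in the second and 6.80% in the third. TATAAA was in 55.1% (47.0% to 62.9%) of the strongest and 39.5% (31.9% to 47.5%) of the weakest, with intervals that just overlap. The median GC content was 30.3% in the strongest and 35.8% in the weakest. Single promoters moved in the same directions, with TATAAA in 43.5% (38.5% to 48.5%) of the strongest group and 30.2% (25.8% to 35.0%) of the weakest, and a median GC content of 31.3% and 39.3%. At divergent promoters the share between head-to-head TSSs was 80.3% (73.1% to 85.9%) in the strongest and 64.6% (56.6% to 71.9%) in the weakest. In replicate 3 the DRE was in 2.58% (1.01% to 6.45%) of the strongest and 12.3% (7.99% to 18.4%) of the weakest group. In replicate 4 the values were 4.02% (1.96% to 8.07%) and 8.67% (5.32% to 13.8%), whose intervals overlap. For CGATA they were 23.2% and 48.4% in replicate 3 and 25.9% and 41.0% in replicate 4, without overlap in either. At single promoters CGATA was in 21.9% (18.0% to 26.3%) of the strongest group and 28.1% (23.8% to 32.8%) of the weakest, and the difference between promoter classes in this respect was not tested.

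At the limits of the definition, the summits farthest from their TSS were those at slv and sut1 (493 bp, signal 412), dbo and DCP2 (449 bp, 1049) and Septin2 and Srp72 (446 bp, 1326). The nearest ones left out were at CG15465 (506 bp, 177), CG5854 (508 bp, 594) and Marf (529 bp, 896). The widest pairs inside were hts with CalpA (999 bp between the TSSs, signal 273), Gnpat with CG5112 (994 bp, 269) and CG15465 with CG32767 (991 bp, 396). The narrowest left out were RpS7 with Anp (1006 bp, 604), CG11961 with Rgk1 (1007 bp, 431) and Eno with Rrp40 (1015 bp, 2343). The weakest summits, at CG31021, stwl and CG33143, had values of 170.2, 170.03 and 169.6. Values just inside and just outside the limits were thus of a similar range, apart from the strong summit at Eno and Rrp40.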

How the data were processed

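ChIP-seq peaks of the dmrt99B-eGFP line were analysed in 2 biological replicates of 1 group. The deposited peak lists in dm6 coordinates were a relaxed list of 30000 peaks for each replicate and for the pooled data, and a list of 7838 peaks thresholded on the irreproducible discovery rate (IDR), per the text listings deposited with the samples. The aligner was not given in the sources used here, nor was the peak caller. The deposited signal value is the authors' score for each peak, on a scale that is not stated, and it was compared only within a list. Read depth is unknown.

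TSSs came from all protein-coding transcripts of Ensembl release 115 (13945 genes, 19607 TSSs) and sequence from the RefSeq copy of release 6. A replicate value is that of the strongest peak of its list that covers the summit. Shares have 95% Wilson intervals and densities exact Poisson intervals. For a count of 0 the share that 3 counts would give is printed beside the Wilson bound for chemosensory and cuticle genes and GAGAGAG. Intervals cover counting error over summits or genes, which are not independent replicates, and no test was made over regions. The 13 motifs were searched on both strands. Computations used scipy 1.17.1, numpy 2.4.6, matplotlib 3.10.9 and pandas 2.3.3 under Python 3.11.15, and the assignment of summits was tested on simulated positions. Alternatives were the stronger part of the list, each replicate alone with its 7838 strongest peaks, other distances, motif windows and TSS sets. Genes were named when at the 20 strongest summits, among the 4 strongest of each of 17 gene lists, among the 3 pairs with most summits, or among the 3 next to each limit and the 3 weakest. A gene that this rule names is not reported here. Sequences were taken in order of signal value from summits off arm 2R with a DRE, with CAGTGTA or with no searched motif in the 121 bases printed. The summits and gene lists were chosen with earlier results of these data known.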

Additional observations from a re-analysis of the deposited data

How the results depend on the processing

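No paired analysis was possible because there is 1 group and no contrast. The main values were 588 summits at divergent promoters, 28.2% of promoter summits, 22.2% of divergent and 12.5% of other genes with a summit, a density ratio of 1.27, a median signal 1.35 times that of the list, 76.4% between head-to-head TSSs, and 8.50% with DRE and 2.89% with CAGTGTA. The density ratio stayed above 1 under each alternative run. Of 87 alternative values, 44 stayed near the main one and 43 moved, taking as limits the main value's Wilson interval for shares, 1.5 times for the number of summits and 1 SD of the values without each replicate for the ratios. With the stronger part of the list these were 369 summits, 15.5% and 7.66% of genes, a density ratio of 1.38, a signal ratio of 1.22, 81.0% between and 6.50% with DRE. A TSS distance of 250 bp gave 38.3% of promoter summits, above the 32.5% of TSSs that are divergent while the main value lies under it, 17.8% and 8.06% of genes and a density ratio of 1.68. A distance of 1000 bp gave 23.8%, 26.0%, 16.7%, a density ratio of 1.17, a signal ratio of 1.33 and 65.6% between. A partner distance of 500 bp gave 19.1% of promoter summits, 13.5% of other genes and a signal ratio of 1.55. A partner distance of 2000 bp gave 39.3%, 20.3% of divergent genes and a signal ratio of 1.31. Gene 5′ ends alone gave 36.4%, 19.3% and 10.4% of genes, a density ratio of 1.56, a signal ratio of 1.36 and 67.5% between. Head-to-head partners alone gave a signal ratio of 1.36 and 79.8% between. Motif windows of 50 bp to either side gave 3.74% for DRE and 0.510% for CAGTGTA, and those of 200 bp gave 17.3% and 6.46%, as the windows' lengths differ. Counting a replicate summit within 50 bp in both replicates, in place of a covering peak, gave 81.6% in place of 96.8%. Leaving out each replicate gave 620 to 693 summits, 29.0% to 30.3% of promoter summits, 23.5% to 26.1% of divergent and 12.6% to 13.5% of other genes, density ratios of 1.33 to 1.41, signal ratios of 1.31 to 1.32, 74.2% to 76.3% between, and 7.07% to 8.39% with DRE and 2.60% to 2.90% with CAGTGTA. For the other moved values the cause was not tested. Unknown read depth limits what a missing summit shows.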

Other observations

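Some divergent pairs held several summits. At Bacc and Pgk, the latter the gene of the glycolytic enzyme phosphoglycerate kinase, 3 summits had signal values of 1219, 450 and 308. At Alp12 and Pax 2 summits had 3275 and 676, and at Elp6, of the Elongator complex, and Dic1, a mitochondrial dicarboxylate carrier, 2 had 2850 and 586. In each of these pairs of genes, the summits did not all lie at the same TSSs. Those of Alp12 and Pax lay at TSSs 498 and 298 bp apart, and those of Elp6 and Dic1 at TSSs 350 and 622 bp apart. At some other pairs, 2 summits lay within the same peak interval. Within pairs with more than 1 summit the spacing ran from 199 to 2532 bp with a median of 232 bp. Another recurring summit lay within 1000 bp of 109 of the 588 (18.5%) and of 391 single-promoter summits (26.1%).

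Summits at divergent promoters were 4.83% of all recurring summits on the X chromosome (76 of 1573) and 7.72% to 8.86% on the large autosomal arms. Divergent TSSs were 1019 of 3309 on the X chromosome and 1239 of 3687 on arm 2L. In 4 pairs both genes were on a list. These were Cdk1 with mRpS7, Prosbeta2 with mRpL39, RpL13 with Dref and brat with Polr1D.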
